A study of Homo sapiens with 2 samples.

Results

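The major histocompatibility complex on chromosome 6 is the gene cluster that encodes the HLA proteins. Its intervals were taken from TCF19 ChIP-seq peak lists of Ishikawa cells, an endometrial cancer cell line. Members were the unique peak intervals whose midpoint lay in a 5 Mb stretch of the short arm of chromosome 6 (hg38), the first starting at 28501621 and the last ending at 33498400. The 70 kb around the TCF19 gene itself were left out, and 9 overexpression and 6 control intervals fell there. This gave 731 members, 317 of the 101370 intervals of the TCF19 overexpression library and 414 of the 159748 of the control library. The overexpression library came from Ishikawa cells infected with a lentivirus that overexpressed TCF19, and the control library from cells infected with a control lentivirus. Both populations were selected with puromycin, and the same anti-TCF19 antibody was used in both, so the control peaks were also precipitated with that antibody. The labels do not state the promoter of the virus, the dose of puromycin or whether single clones were grown. Each group had 1 library, so no difference below has a replicate check or a test, and the 95% intervals (exact Poisson for counts, Wilson for shares) cover counting error only.

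The complex is by convention divided into 3 segments. Class I genes encode HLA-B, HLA-C and their relatives, which show peptides from inside the cell to cytotoxic T cells and natural killer cells. Class II genes encode the HLA-DR, HLA-DQ and HLA-DP pairs, which antigen-presenting cells use to show peptides to helper T cells, and the same segment holds the TAP transporter and immunoproteasome genes that supply class I molecules with peptides. Class III lies between them and is packed with genes for complement, cytokines, heat shock proteins and general cell functions. TCF19 is a nuclear protein with a forkhead-associated domain and a PHD finger, and its own gene lies in the class I segment. The segments were set here at the upper ends of MICB (31511124) and NOTCH4 (32224067).

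Antigen presentation genes are what the region is best known for, so the sequences before their transcript starts are shown for 3 class I genes and the 2 TAP genes, which had a summit near that start in both libraries, and for 2 class II genes, which had none in either. Each sequence is the 250 bases before the start in the RefSeq promoter table (GRCh38.p14), read 5′ to 3′ on the gene's strand. Capitals mark, on either strand, CCAAT (the CCAAT box), GAAANNGAAA (a core of the interferon-stimulated response element) and GGGCGG (the GC box).
HLA-B, chr6:31357180-31357429, minus strand: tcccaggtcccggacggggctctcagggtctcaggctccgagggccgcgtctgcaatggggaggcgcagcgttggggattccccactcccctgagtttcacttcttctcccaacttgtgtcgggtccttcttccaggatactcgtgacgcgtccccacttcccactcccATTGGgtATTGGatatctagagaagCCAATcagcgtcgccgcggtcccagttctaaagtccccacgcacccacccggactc
HLA-C, chr6:31272093-31272342, minus strand: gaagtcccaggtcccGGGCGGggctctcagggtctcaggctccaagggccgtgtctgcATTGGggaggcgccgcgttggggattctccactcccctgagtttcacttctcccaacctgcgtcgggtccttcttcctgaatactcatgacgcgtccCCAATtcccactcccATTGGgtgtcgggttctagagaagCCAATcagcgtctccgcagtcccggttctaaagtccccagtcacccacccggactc
HLA-F, chr6:29723184-29723433, plus strand: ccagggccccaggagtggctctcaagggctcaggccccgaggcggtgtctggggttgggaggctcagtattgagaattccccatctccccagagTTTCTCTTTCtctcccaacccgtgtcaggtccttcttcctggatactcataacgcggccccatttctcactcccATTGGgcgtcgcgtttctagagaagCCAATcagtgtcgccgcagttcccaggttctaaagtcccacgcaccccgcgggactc
TAP1, chr6:32853705-32853954, minus strand: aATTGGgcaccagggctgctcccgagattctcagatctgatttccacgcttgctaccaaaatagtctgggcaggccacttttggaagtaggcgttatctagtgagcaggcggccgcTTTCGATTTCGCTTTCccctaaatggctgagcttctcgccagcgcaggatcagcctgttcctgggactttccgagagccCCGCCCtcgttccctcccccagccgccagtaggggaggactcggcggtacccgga
TAP2, chr6:32838740-32838989, minus strand: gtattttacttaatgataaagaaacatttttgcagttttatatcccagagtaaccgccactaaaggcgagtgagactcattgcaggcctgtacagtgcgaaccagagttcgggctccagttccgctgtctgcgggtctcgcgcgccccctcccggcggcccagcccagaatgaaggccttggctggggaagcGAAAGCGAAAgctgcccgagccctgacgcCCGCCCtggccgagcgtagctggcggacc
HLA-DRB1, chr6:32589849-32590098, minus strand: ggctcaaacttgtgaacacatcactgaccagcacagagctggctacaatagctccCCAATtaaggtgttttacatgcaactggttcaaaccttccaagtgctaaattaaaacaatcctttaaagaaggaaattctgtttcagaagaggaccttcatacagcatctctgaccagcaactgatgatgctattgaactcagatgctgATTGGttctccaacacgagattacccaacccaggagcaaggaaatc
HLA-DQB1, chr6:32666658-32666907, minus strand: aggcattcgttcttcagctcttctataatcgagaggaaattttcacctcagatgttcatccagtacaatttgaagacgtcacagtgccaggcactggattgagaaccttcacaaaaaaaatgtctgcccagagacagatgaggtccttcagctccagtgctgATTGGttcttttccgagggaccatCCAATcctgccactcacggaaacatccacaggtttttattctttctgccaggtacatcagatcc
CCAAT occurred in 32.0% of the 35116 promoter windows of the table, GAAANNGAAA in 3.02% and GGGCGG in 42.6%. Those shares are per window, whereas the counts that follow are of genes with a match in any of their windows. The class I genes had 8 windows, the class II genes 13 and the antigen processing genes 7, so the units differ. Among the class I and class I-like genes, 6 of 7 had an entry in the table, and CCAAT occurred in 6 and GAAANNGAAA in 1 of these 6. Among the class II genes, 12 of 13 had an entry, CCAAT occurred in 11 and GAAANNGAAA in 0. Of the 5 antigen processing genes, CCAAT occurred in 2 (TAP1 and PSMB9) and GAAANNGAAA in 3 (TAP1, TAP2 and TAPBP). The windows of TAP1 and PSMB9 overlap, and their CCAAT matches are the same bases read on opposite strands. GGGCGG occurred in 4 of the 6 class I, 1 of the 12 class II and 4 of the 5 antigen processing genes. A match of letters is a description and was not tested as a binding site. No window was printed for HLA-E or HLA-DRA.

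Intervals lay more densely in the complex than in the rest of chromosome 6 in both libraries. The overexpression library had 64.3 intervals per Mb in the region (57.4 to 71.8), against 31.4 per Mb (30.5 to 32.2) in the rest of the chromosome, which is 2.05 times as dense (1.83 to 2.29). The control library had 84.0 per Mb in the region (76.1 to 92.5) and 53.6 per Mb (52.45 to 54.7) in the rest, or 1.57 times as dense (1.42 to 1.73). Of the 32 windows of 5 Mb of the chromosome that lay apart from the region, 3 were denser than the region in the overexpression library and 2 in the control library. The excess did not stop at the borders. The 1 Mb below the region held 76 overexpression and 98 control intervals, and the 1 Mb above it held 73 overexpression and 69 control intervals.

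The 3 segments differed in this density. Class III, the shortest at 0.713 Mb, had the densest intervals of the overexpression library at 91.2 per Mb (70.4 to 116.0), 2.91 times the rest of the chromosome (2.24 to 3.70). In the control library class III had 94.0 per Mb (72.8 to 119.0), 1.75 times the rest (1.36 to 2.23). Class I had 65.3 per Mb in the overexpression library (2.08 times the rest, 1.80 to 2.40) and 88.4 in the control library (1.65 times, 1.46 to 1.86). Class II was the sparsest segment in both, with 47.0 per Mb in the overexpression library (1.5 times the rest, 1.14 to 1.93) and 68.2 in the control library (1.27 times, 1.02 to 1.57). The order of segments follows that of protein-coding genes only at its upper end, with 82.8 genes per Mb in class III, 31.3 in class II, 22.4 in class I and 5.30 in the rest.

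The local background moved with the density of class III. This background is the number of reads of the ChIP library itself in the 10 kb around a summit, recovered from the deposited fold and p-value. It does not fall below the genome average, which stands in place of any lower number. At that floor were 21.1% of overexpression and 39.3% of control summits on chromosomes 1 to 22 and X. Its median was 159 reads in the overexpression library and 175 in the control library at class III intervals, against 66 and 59 reads in the rest of chromosome 6. At class I intervals it was 84 reads (overexpression) and 86 (control), and at class II intervals 90.5 (overexpression) and 76 (control). The genome average was 51.8 reads per 10 kb in the overexpression library and 58.0 in the control library, so class III stood at 3.07 and 3.02 times the average. The control median of 59 reads in the rest of chromosome 6 lay close to the floor. Its part in the density was not tested. When each list was held to the same 50685 intervals of highest fold, a measure that divides by this background, the density of class III relative to the rest was 1.04 in the overexpression library (0.552 to 1.77) and 0.468 in the control library (0.172 to 1.02), and that of class II was 1.02 in the overexpression library (0.649 to 1.54).

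**Figure D1:**
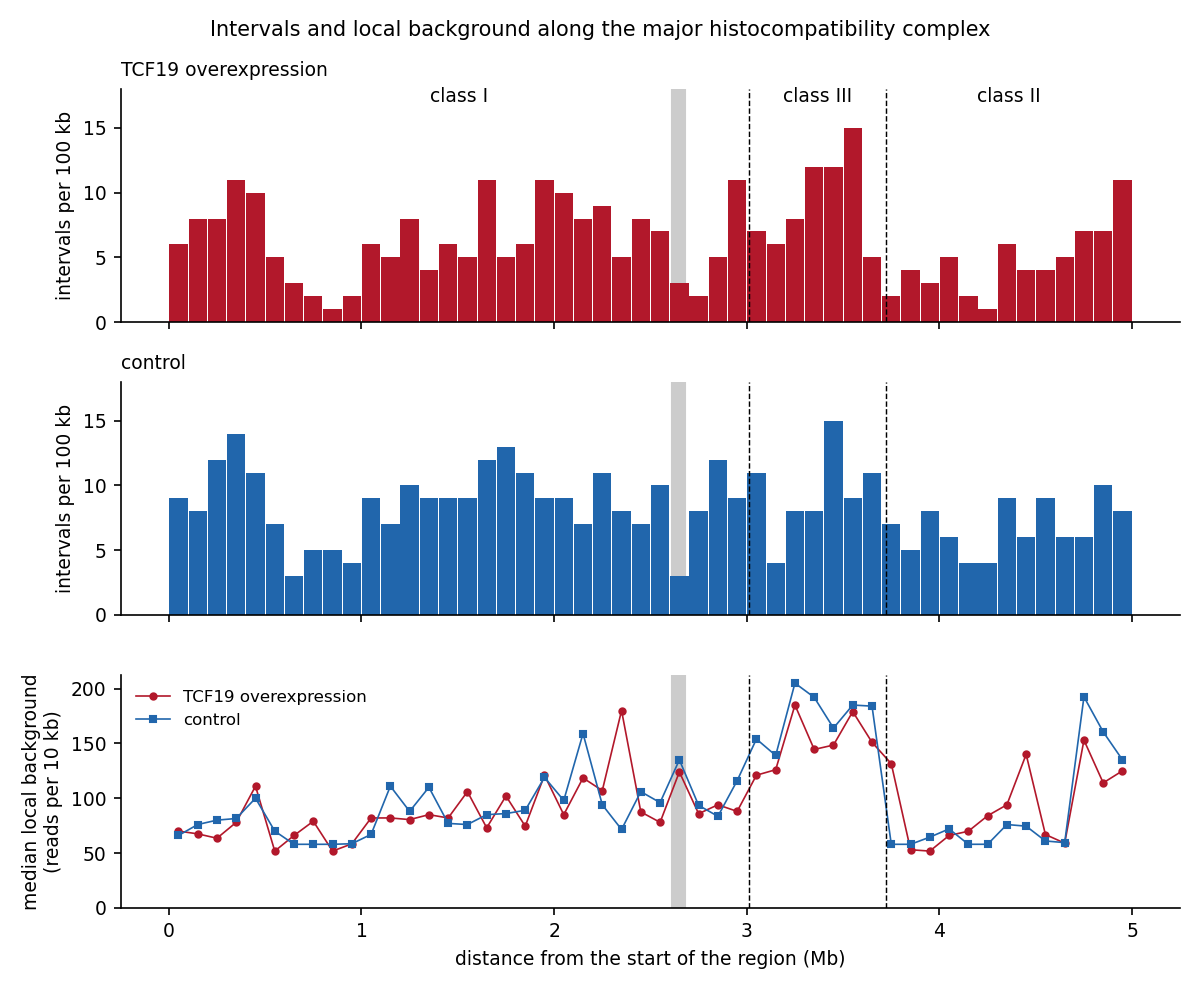
Intervals in each 100 kb (top, TCF19 overexpression; middle, control) and the median local background of those intervals in reads per 10 kb (bottom), by distance in Mb from the start of the region. Dashed lines are the segment borders and the grey band is the sequence left out at TCF19; the background was highest within class III in both libraries, and the overexpression library had its fewest intervals, 1 in 100 kb, at 0.8 and 4.2 Mb.

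Along the region the fewest overexpression intervals, 1 in 100 kb, lay at 0.8 Mb from the start of the region among the olfactory receptor genes, and again 1 at 4.2 Mb around HLA-DQA2 and HLA-DQB2. The control library had 5 and 4 intervals in these 2 windows. The most overexpression intervals in a window, 15, lay at 3.5 Mb around C4A, C4B, CYP21A2 and TNXB, where the control library had 9. In the neighbouring window at 3.4 Mb, around C2, CFB and SKIC2, the overexpression library had 12 intervals and the control library 15. C4A and C4B, and CYP21A2 and TNXB with their pseudogene copies, are near-identical pairs, so reads there could be placed on either copy, and the labels do not say how such reads were handled.

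The overexpression library had fewer intervals than the control library, and the complex shared in this less than the rest of the chromosome. The ratio of overexpression to control intervals was 0.766 in the region, 0.586 in the rest of chromosome 6 and 0.635 on all chromosomes. By segment it was 0.738 in class I, 0.970 in class III and 0.690 in class II. Split by place, the region's ratio was 1.06 within 1000 bp of an end of a protein-coding gene and 0.708 farther away, against 1.03 and 0.553 in the rest of the chromosome.

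A larger share of the region's intervals lay at gene ends than elsewhere, but the region also has more gene ends. A gene-end interval is one whose summit of highest fold lay within 1000 bp of either end of a protein-coding gene span. There were 72 such intervals in the overexpression library, 22.7% (18.4 to 27.6), and 68 in the control library, 16.4% (13.2 to 20.3). Over all chromosomes the shares were 13.5% and 7.52%, and in the rest of chromosome 6 they were 12% and 6.82%. Class III had the highest shares, 33.8% of overexpression intervals (23.5 to 46.0) and 31.3% of control intervals (21.5 to 43.2). Class II followed with 23.3% and 19.5%, and class I with 18.8% and 11.5%.

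Set against the length of such sequence, gene ends held fewer intervals in the complex than in the rest of the chromosome. Sequence within 1000 bp of a gene end made up 10.9% of the region and 23.9% of class III, but 1.91% of the rest of chromosome 6. The region's gene-end share was therefore 2.09 times (overexpression, 1.70 to 2.54) and 1.51 times (control, 1.21 to 1.87) its share of length, against 6.28 and 3.57 times in the rest. Per Mb of gene-end sequence the region had 134 overexpression intervals (105 to 169) and 127 control intervals (98.55 to 161), and the rest of the chromosome had 197 (182 to 213) and 191 (176 to 207). Away from gene ends the order was turned round, with 55.8 overexpression (49.0 to 63.2) and 78.7 control intervals per Mb (70.7 to 87.5) in the region, against 28.1 and 50.9 per Mb in the rest. The intervals of region and rest do not overlap in either comparison in either library.

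**Figure D2:**
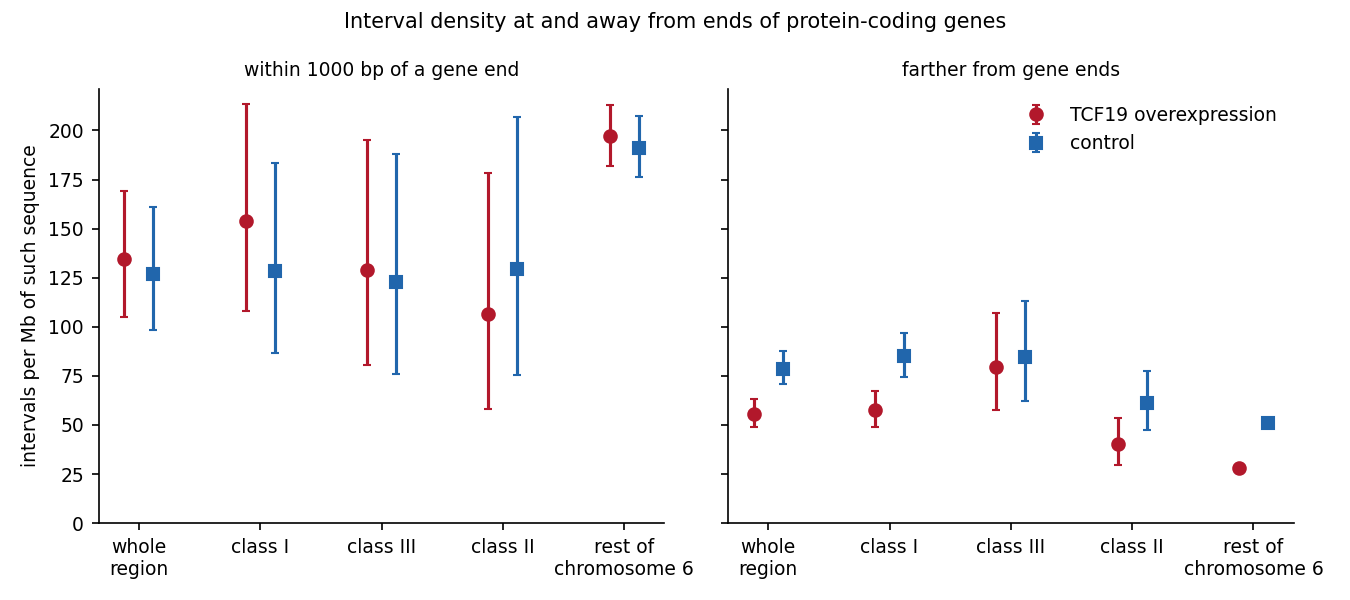
Intervals per Mb within 1000 bp of an end of a protein-coding gene (left) and farther away (right), for the whole region, its 3 segments and the rest of chromosome 6; points are the 2 libraries (TCF19 overexpression left of control) and bars exact Poisson 95% intervals. At gene ends the region lay below the rest of the chromosome in both libraries (134 and 127 against 197 and 191 per Mb), and away from them it lay above (55.8 and 78.7 against 28.1 and 50.9).

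Gene starts and gene stops were also counted apart. Where the reference gives a strand (148 of the 165 genes tested in the region), 49 overexpression intervals of the region, 15.5%, lay at a gene start, against 9.59% on all chromosomes, and 43 control intervals, 10.4%, against 5.07%. Gene stops held 20 overexpression intervals of the region, 6.31%, against 1.71% on all chromosomes, and 27 control intervals, 6.52%, against 1.21%. In class III, 14 of 65 overexpression intervals (21.5%) and 13 of 67 control intervals (19.4%) lay at a start, and 11 (16.9%) and 11 (16.4%) at a stop. In class II, 9 of 60 overexpression intervals (15%) and 8 of 87 control intervals (9.2%) lay at a start, and 3 (5%) and 9 (10.3%) at a stop. The differences between segments were not tested. An interval can lie near the stop of one gene and the start of the next, as 3 did in class III in each library.

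The 2 lists overlapped in the region to a different degree than in the rest of chromosome 6. Set against all chromosomes, the interval of the region's overexpression share included their share, and that of its control share did not. Of the region's overexpression intervals, 201 (63.4%, 58.0 to 68.5) were overlapped by at least 1 bp by a control interval, against 67.4% on all chromosomes and 72.6% in the rest of chromosome 6 (71.4 to 73.8). Of the control intervals, 206 (49.8%, 45.0 to 54.6) were overlapped by an overexpression interval, against 43.0% on all chromosomes and 42.7% in the rest (41.7 to 43.8). In class III the shares were 56.9% (44.8 to 68.2) of overexpression and 56.7% (44.8 to 67.9) of control intervals, but with equal list sizes by highest fold they were 30.8% (12.7 to 57.6) and 66.7% (30.0 to 90.3). In class I they were 65.1% and 48.8%, and in class II 65.0% and 47.1%.

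Intervals seen in 1 list alone lay at gene ends at different rates in the region as a whole, but not in every segment. Of the 116 overexpression intervals with no control overlap, 26 lay at a gene end (22.4%, 15.8 to 30.8), and of the 208 control intervals with no overexpression overlap, 22 did (10.6%, 7.09 to 15.5). On all chromosomes these shares were 13.6% and 2.89%. In class I they were 20.9% (12.9 to 32.1) and 5.26% (2.57 to 10.5), and in class III 17.9% and 17.2%. In class II they were 33.3% (17.2 to 54.6) and 21.7% (12.3 to 35.6), which overlap. Being seen in 1 list alone was often within counting error. Each summit pileup was scaled to the other library's depth and set against the pileup callable there at the same relative background. It reached that limit for 116 of the 116 overexpression intervals and 195 of the 208 control intervals. The lower Poisson bound reached it for only 21 overexpression and 11 control intervals. For the rest, absence from the other list was within counting error of the pileup.

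**Figure D3:**
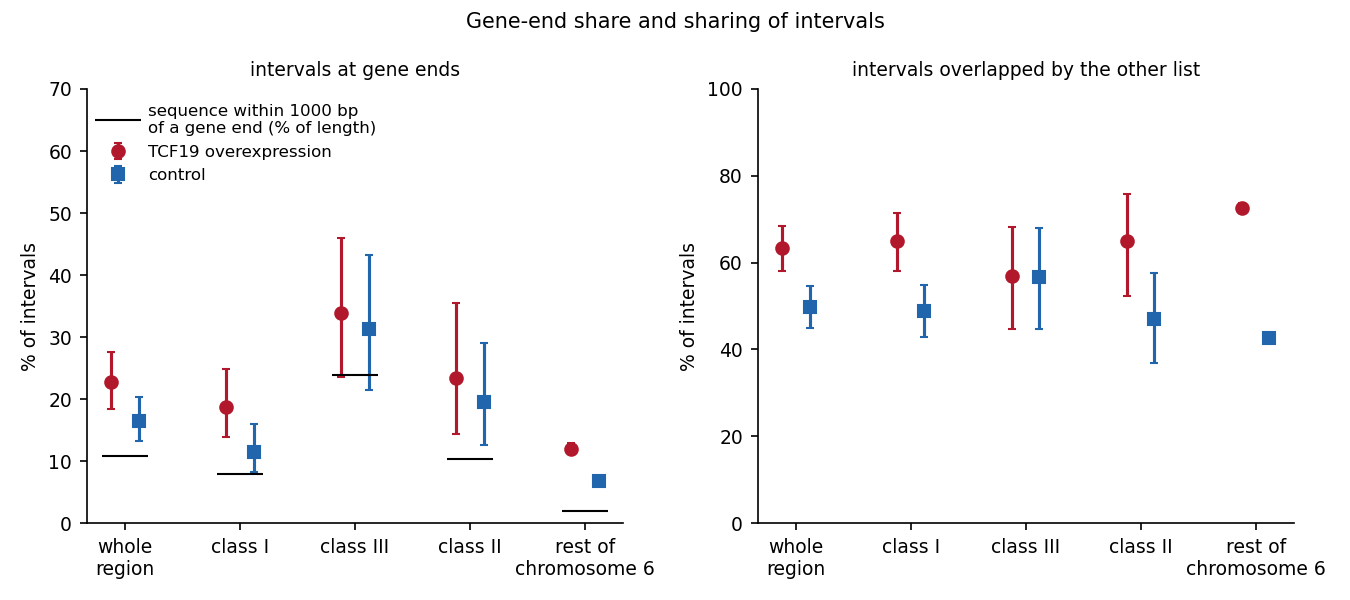
Share of intervals at gene ends (left, with black bars for the share of sequence within 1000 bp of a gene end) and share overlapped by the other list (right), in percent, for the region, its segments and the rest of chromosome 6; TCF19 overexpression is left of control and bars are Wilson 95% intervals. In class III the 2 libraries had close shares in both panels (33.8% and 31.3%, 56.9% and 56.7%).

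The median summit pileup, the number of fragments stacked at the summit, was 14 reads in the overexpression library and 13 in the control library in the region, against 12 (overexpression) and 11 (control) in the rest of chromosome 6. The highest was 27 reads in each library in the region, while the many more intervals of the rest reached 155 (overexpression) and 138 reads (control). In class III the median was 17 reads in both. At 98 places a summit of each library lay within 100 bp of the other, and there the depth-scaled log2 ratio of overexpression to control pileup had a median of 0.16, with 61 of 98 (62.2%) above 0. In the rest of chromosome 6 the median was also 0.16 with 60.8% above 0, and on all chromosomes 59.0% were above 0. Equal read numbers in both libraries give a ratio of 0.16 on this scale. The 14 such pairs at gene ends had a median of 0.16 with 8 above 0, whereas gene-end pairs on all chromosomes had a median of 0.37 with 78.3% above 0 and those in the rest of chromosome 6 one of 0.39. The 8 gene-end pairs of class III had a median of -0.04 and the 4 of class I one of 0.33.

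**Figure D4:**
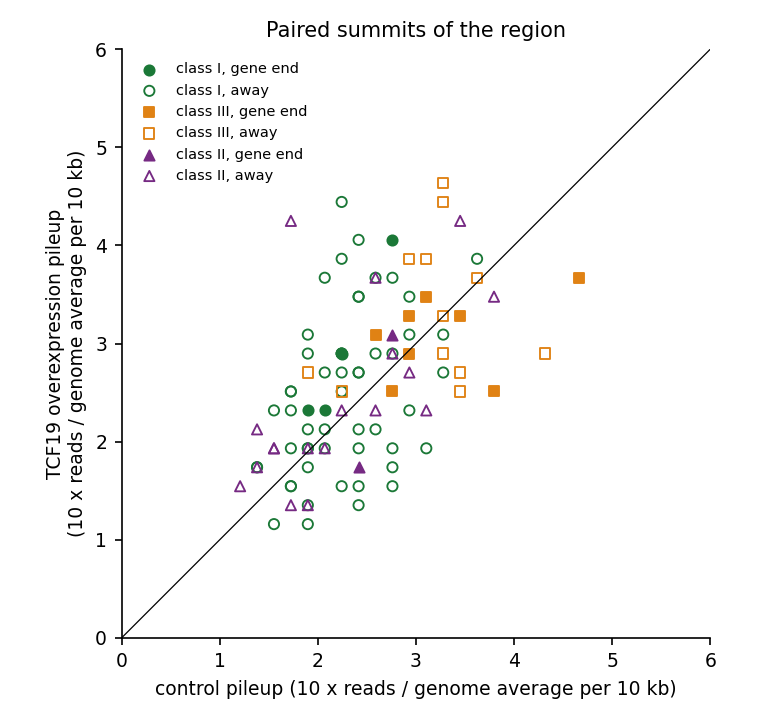
Summit pileup of the TCF19 overexpression library (vertical) against the control library (horizontal) at the 98 paired summits, each as 10 times the reads over that library's genome average per 10 kb; colours and shapes give the segment, filled points lie at gene ends and the line marks equality. Of the 98 points 61 lie above the line, and those of class III at gene ends lie on both sides of it.

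Of the 165 protein-coding genes tested in the region (7 more overlapped the sequence left out), 79 had a summit within 1000 bp of an end in the overexpression library (47.9%, 40.4 to 55.5) and 70 in the control library (42.4%, 35.1 to 50.1). Over all 19974 protein-coding genes the shares were 64.8% and 54.6%, so fewer genes of the complex had such a peak than genes at large. Genes with one in both libraries numbered 54 of the 165, against 48.8% of all genes. A further 25 of the 165 had one only in the overexpression list, against 16.0% of all genes. Only in the control list there were 16 of the 165, against 5.84% of all genes. In neither list there were 70 of the 165, against 29.4% of all genes. These counts rest on 73 overexpression and 69 control intervals, because neighbouring genes can share a summit. For 50 of the 54 genes the closest summits of the 2 libraries lay within 1000 bp of each other, with a median distance of 120 bp over the 54. The exceptions were PPP1R11, MCCD1, SAPCD1 and VPS52, where they lay at different places.

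Of the 7 classical and related class I genes, 6 had a summit at an end of the gene in the overexpression library (85.7%, 48.7 to 97.4, against 64.8% of all genes) and 4 had one in the control library (57.1%, 25 to 84.2, against 54.6%). Both intervals include the share of all genes, and with a window of 500 bp the counts fell to 3 (overexpression) and 2 (control). HLA-B, HLA-C, HLA-F and MICA belonged to both sets, while HLA-E and MICB had one only among overexpression summits. HLA-C, whose product also serves as a ligand of killer cell receptors, had a summit pileup of 22 reads (13.8 to 33.3) in the overexpression library and 17 reads (9.90 to 27.2) in the control library. HLA-B, the most variable of the classical genes, had 22 reads (13.8 to 33.3) in the overexpression library and 15 (8.40 to 24.7) in the control library. The intervals of both genes overlap between libraries, with depth-scaled log2 ratios of 0.54 for HLA-C and 0.72 for HLA-B. These summits lay inside the genes, downstream of the starts whose upstream sequence is shown above. The control library had a further HLA-B summit of 12 reads 191 bp upstream of the start, and intervals covered 155 (overexpression) and 250 (control) of the 250 bases shown for HLA-B. Of the 250 bases shown for HLA-C, intervals covered 0 in either library. For HLA-F they covered 0 in the overexpression library and 219 in the control library.

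HLA-F, a non-classical class I gene, went the other way, with 12 reads (6.20 to 21.0) in the overexpression library and 20 reads (12.2 to 30.9) in the control library. Its log2 ratio was -0.57, and its Poisson intervals overlap as well. The local background there also differed, with 99 reads per 10 kb in the overexpression library and 156 in the control library. The folds, which divide by it, were 3.48 (overexpression) and 3.99 (control). HLA-E, whose product is read by an inhibitory receptor of natural killer cells, had 16 reads (9.15 to 26) in the overexpression library and no summit at its ends or in its body in the control library. At the same relative background the control list would have called a pileup of 12 reads at HLA-E. The lower Poisson bound of the HLA-E pileup, scaled to the control depth, was 10.2 reads. Its absence from the control list was therefore within counting error. The HLA class I genes resemble one another, and variable alleles differ from the reference, so read placement among them is uncertain.

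The transcript starts of the promoter table removed part of this difference. That table lists starts inside a gene span as well as at its end, and it was used after the data had been seen. All 6 class I and class I-like genes with a listed start (HLA-B, HLA-C, HLA-F, HLA-G, MICA and MICB) had a summit within 1000 bp of one in both libraries, against 66.4% of all genes with a listed start in the overexpression library and 54.4% in the control library. HLA-G, the non-classical gene expressed in trophoblast, had its summits 154 bp (overexpression) and 209 bp (control) downstream of a start at 29827825. MICB, a stress-induced ligand of the NKG2D receptor, had them 213 bp and 662 bp downstream of a start at 31498145. MICA, another ligand of that receptor, had them 213 bp downstream and 15 bp upstream of a start at 31403595. At the ends of the MICA span the highest-fold summits of 19 reads (overexpression) and 17 reads (control) lay 14552 bp apart and are not a pair.

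Of 13 class II HLA genes, 1 had a summit at an end in the overexpression library (7.69%, 1.37 to 33.3, against 64.8% of all genes) and 4 had one in the control library (30.8%, 12.7 to 57.6, against 54.6%). The counts moved with the settings, to 4 (overexpression) and 6 (control) with a window of 2000 bp, and to 2 in the control library at a −log10 q-value of at least 2. HLA-DPA1, the alpha chain of HLA-DP, had one in both, with 12 reads (6.20 to 21.0) in the overexpression library and 17 reads (9.90 to 27.2) in the control library. That summit lies 108 bp (overexpression) and 331 bp (control) upstream of its outermost listed start and within the span of HLA-DPB1, and at its inner listed start, 33073649, the nearest summits were 7207 bp (overexpression) and 4879 bp (control) away. In the control library alone, HLA-DMA, part of the DM peptide editor, had 13 reads (6.92 to 22.2) near its stop, HLA-DQA2 had 7 reads (2.81 to 14.4) near its start and HLA-DQB1 had 6 reads (2.20 to 13.1) near its stop. The last 2 were among the lowest summits called in the region, whose lowest was 6 reads in each library. At listed starts, 1 of 12 class II genes had a summit in the overexpression library (8.33%, 1.49 to 35.4) and 2 in the control library (16.7%, 4.70 to 44.8).

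The remaining 9 class II genes (HLA-DRA, HLA-DRB1, HLA-DRB5, HLA-DQA1, HLA-DQB2, HLA-DOB, HLA-DOA, HLA-DMB and HLA-DPB1) had no gene-end summit in either library. For HLA-DRB1, the main DR beta chain, the summit nearest its start lay 5239 bp downstream in the overexpression library and 5222 bp in the control library. These were summits in the gene body, of 22 and 10 reads. At HLA-DQB1 the nearest lay 1351 bp and 1544 bp downstream of the start. Summits in gene bodies were found in 7 of the 13 class II genes in the overexpression library and 10 in the control library. Of the 165 genes of the region, 102 (overexpression) and 98 (control) had one, and the share over all genes was not computed. HLA-DR, HLA-DQ and HLA-DP genes also have close copies, so the place of these reads is uncertain.

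**Figure D5:**
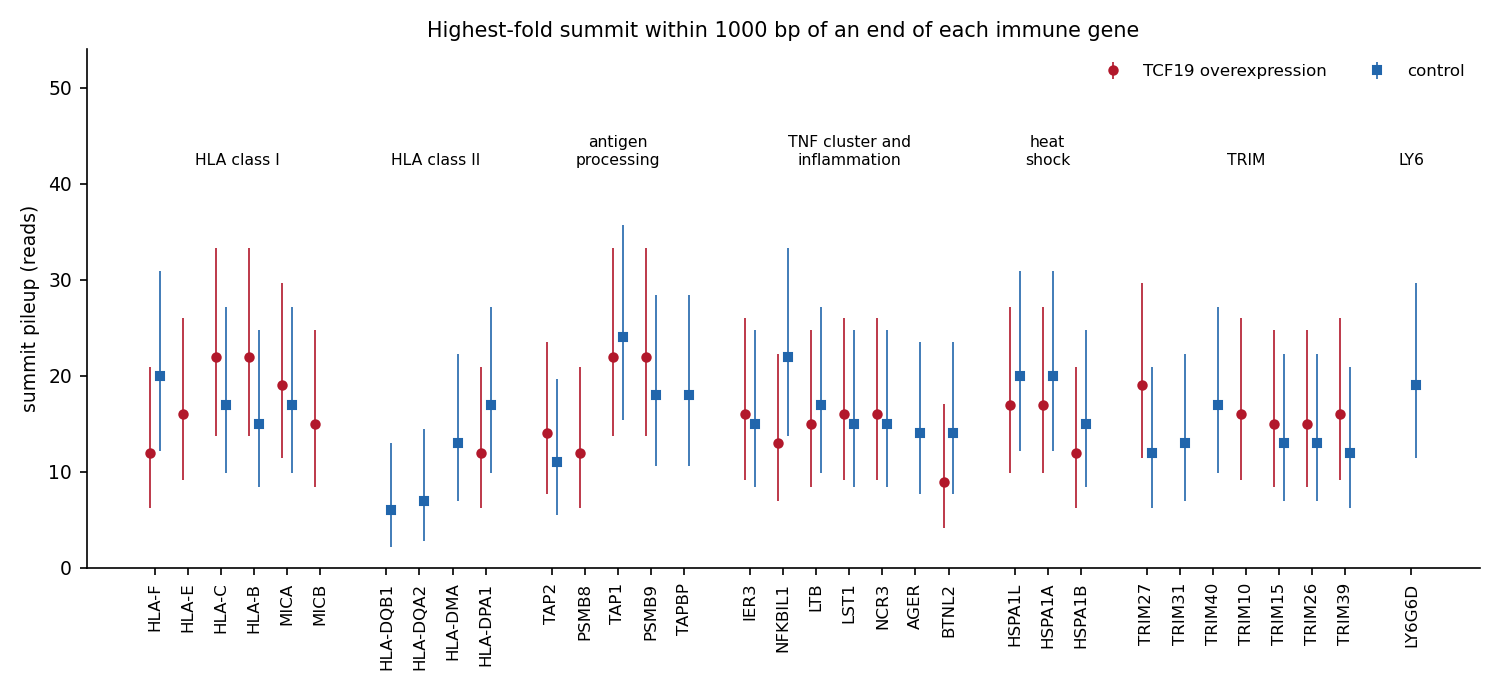
Summit pileup in reads, with exact Poisson 95% intervals, of the highest-fold summit within 1000 bp of an end of each immune gene that had one, grouped by gene list and ordered by position within a list; TCF19 overexpression is left of control and a missing point means no such summit. Class I genes have 6 overexpression and 4 control points, class II genes 1 and 4, and intervals overlap wherever a gene has both.

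The genes that feed peptides to class I molecules lie in the class II segment. Of the 5 antigen processing genes, 4 had a gene-end summit in each library (80%, 37.6 to 96.4), an interval that includes the shares of all genes. TAP1, a subunit of the peptide transporter of the endoplasmic reticulum, had 22 reads (13.8 to 33.3) in the overexpression library and 24 reads (15.4 to 35.7) in the control library, where the highest of the region was 27 reads in each. PSMB9, an immunoproteasome subunit read from the opposite strand, shares the overexpression summit of TAP1 and had 18 reads (10.7 to 28.4) in the control library, so the 2 genes are not separate cases. In the overexpression library an interval covered all 250 bases shown before the TAP1 start, and in the control library one covered 109 of them. TAP2, the other transporter subunit, had 14 reads (7.65 to 23.5) in the overexpression library and 11 reads (5.49 to 19.7) in the control library, with intervals over 207 and 250 of the 250 bases shown. PSMB8, another immunoproteasome subunit, had 12 reads (6.20 to 21.0) in the overexpression library alone, where the control list would have called 11. Its lower Poisson bound, scaled to the control depth, was 6.94 reads, so this absence was within counting error. TAPBP, the tapasin that bridges TAP and class I molecules, had 18 reads (10.7 to 28.4) in the control library alone, at a summit shared with its neighbour ZBTB22.

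Complement genes of class III had summits in their bodies but not at the ends of their spans. None of C2, CFB, C4A and C4B had a summit at an end in either library (0 to 49.0%), against 64.8% (overexpression) and 54.6% (control) of all genes. A body summit was found in 3 of the 4 in the overexpression library and in all 4 in the control library. Of the 165 genes of the region, 102 (overexpression) and 98 (control) had one, and the share over all genes was not computed. C2, which forms the classical C3 convertase with C4, had 5 body summits of up to 20 reads in the overexpression library and 8 of up to 21 in the control library. The span of C2 also holds ZBTB12, whose gene-end summits of 18 reads in each library are among these. One of its inner listed starts had a summit within 1000 bp in both libraries. CFB, the factor of the alternative pathway, had 0 body summits in the overexpression library and 1 of 19 reads in the control library.

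The TNF cluster and other inflammation genes had a summit at an end in 6 of 11 cases in the overexpression library (54.5%, 28.0 to 78.7) and 7 in the control library (63.6%, 35.4 to 84.8), shares that lie around those of all genes (64.8% and 54.6%). TNF itself, the cytokine that gives the cluster its name, had none at its ends or in its body in either library, nor did AIF1 and UBD. LTB, which encodes lymphotoxin beta, had 15 reads (8.40 to 24.7) in the overexpression library and 17 (9.90 to 27.2) in the control library near its stop. NFKBIL1, a gene related to the inhibitors of NF-kappa-B, had 13 reads (6.92 to 22.2) in the overexpression library and 22 (13.8 to 33.3) in the control library, also near its stop. Its local background was 101 reads per 10 kb (overexpression) and 197 (control), and its folds were 3.70 and 3.61. IER3, an immediate early stress gene, had 16 reads in the overexpression library and 15 in the control library. LST1 and NCR3, a natural killer cell receptor, share 1 summit of 16 reads in the overexpression library and 15 in the control library. BTNL2, a butyrophilin-like inhibitor of T cells, had 9 reads in the overexpression library and 14 in the control library, and AGER, the receptor for advanced glycation end products, had 14 reads in the control library alone. LTA, which encodes lymphotoxin alpha, had no summit at the ends of its span but one within 1000 bp of an inner listed start in both libraries.

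The 3 HSP70 genes of class III had a summit near their starts in both libraries (100%, 43.9 to 100). Of all genes with a listed start, 66.4% (overexpression) and 54.4% (control) had a summit within 1000 bp of one. The interval includes both shares. HSPA1A and HSPA1L, which are read in opposite directions, share a summit of 17 reads (9.90 to 27.2) in the overexpression library and 20 reads (12.2 to 30.9) in the control library. HSPA1B had 12 reads (6.20 to 21.0) in the overexpression library and 15 (8.40 to 24.7) in the control library. HSPA1A and HSPA1B are near-identical, so these values may hold reads of either gene. The local background at the HSPA1A summit was 3.07 times the genome average in the overexpression library and 3.21 times in the control library.

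All 7 TRIM genes of class I, most of which encode RING-finger ubiquitin ligases, had a summit at an end in at least 1 library, as did 70.6% of all genes. They were 5 in overexpressing cells (71.4%, 35.9 to 91.8) and 6 in control cells (85.7%, 48.7 to 97.4), intervals that include the shares of all genes. TRIM27 had 19 reads (11.4 to 29.7) in the overexpression library and 12 (6.20 to 21.0) in the control library. In the overexpression library TRIM39 had 16 reads and TRIM26 and TRIM15 had 15 each, against 12, 13 and 13 in the control library. TRIM10 had 16 reads (9.15 to 26) in the overexpression library alone, at a summit that also lies at the start of TRIM15. TRIM31 had 13 reads and TRIM40 17 reads (9.90 to 27.2) in the control library alone. The TRIM40 summit lay 963 bp inside its start, close to the edge of the 1000 bp window, on a background at the genome average. At the same relative background the overexpression list would have called 6 reads.

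Of the other gene groups, the largest was that of general cell functions. Gene-end summits were found at 24 of 44 such genes in the overexpression library (54.5%, 40.1 to 68.3, against 64.8% of all genes). In the control library they were found at 16 (36.4%, 23.8 to 51.1, against 54.6%). The overexpression interval includes the share of all genes. Of these genes 11 were shared, 13 had no control summit at an end and 5 had no overexpression summit there. Over all genes the matching shares were 48.8%, 16.0% and 5.84%. The overexpression-alone genes include MDC1, a DNA damage checkpoint mediator, with 18 reads, RPS18, a ribosomal protein of the small subunit, with 18 reads at a summit 683 bp past its stop and 71 bp from an end of B3GALT4, TUBB, a beta tubulin, with 17 reads, and NELFE, a subunit of the negative elongation factor, with 20 reads at a summit shared with SKIC2. B3GALT4 also had a control summit, of 16 reads, 537 bp from that end. The control-alone genes include DDX39B, an RNA helicase of the splicing and export machinery, with 19 reads, and BRD2, a bromodomain protein, with 13 reads near the upper end of its span. BRD2 also had a summit within 1000 bp of a listed start in both libraries. Olfactory receptor genes were almost bare, with a gene-end summit at 1 of 12 in both libraries (8.33%, 1.49 to 35.4), below the shares of all genes. That gene was OR10C1, with 12 reads in the overexpression library and 11 in the control library. Of the 6 LY6 family genes, 0 had one in the overexpression library (0 to 39.0%, against 64.8% of all genes). In the control library 1 had one (16.7%, 3.01 to 56.4, against 54.6%). That was LY6G6D, with 19 reads (11.4 to 29.7). At listed starts 1 of the 6 had a summit in each library, MPIG6B in the overexpression and LY6G6D in the control library. Of all genes with a listed start, 66.4% (overexpression) and 54.4% (control) had one. Of the 5 skin and epithelium genes tested, MUCL3 had a gene-end summit in both libraries, with 17 reads in the overexpression and 16 in the control library. VARS2, which stands in that list but encodes the mitochondrial valyl-tRNA synthetase, had one of 26 reads (17 to 38.1) in the overexpression library alone. DDR1 of that list had none at the ends of its span but a summit within 1000 bp of a listed start in both libraries.

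The intervals of highest fold were mostly not at protein-coding genes. In the overexpression library the highest, chr6:28814091-28814593 in class I, had 23 reads (14.6 to 34.5), a fold of 7.61 by the authors' value, and lay 88667 bp from the nearest coding gene, TRIM27. The control library had 13 reads (6.92 to 22.2) there. The other 4 of the top 5 were chr6:29159644-29160340 near OR2J2 (19 reads, and 15 in the control library), chr6:32879614-32880128 in the pseudogene PPP1R2P1 (22, and 20), chr6:31244293-31244869 between HLA-C and the sequence left out (16, and 11) and chr6:31067022-31067880 near MUC22 (21, and 10). All 5 were overlapped by a control interval and none lay at a gene end.

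In the control library, by its own fold, the first was chr6:31053794-31054219 in HCG22, with 18 reads (10.7 to 28.4) and a fold of 7.28, and the second the TRIM40 interval chr6:30136875-30137306. Neither was overlapped by an overexpression interval. The next, chr6:33021843-33022342 near HLA-DOA, chr6:29295111-29296107 near OR14J1 and the PPP1R2P1 interval, had 17, 17 and 20 reads in the control library and were overlapped by overexpression intervals of 14, 18 and 22 reads. Among intervals of the overexpression list alone, the highest folds belonged to chr6:30443952-30444374 (13 reads), chr6:32595935-32596554, 6502 bp above HLA-DRB1 (14 reads), chr6:30111269-30111671 inside TRIM31 (13 reads), chr6:30027358-30027639 in the transcribed pseudogene POLR1HASP (13 reads) and chr6:28600795-28601104 inside SCAND3 (11 reads). After HCG22 and TRIM40, the highest of the control list alone were chr6:30396914-30397317 (21 reads), chr6:29347871-29348289 near OR5V1 (14 reads) and chr6:32742836-32743197 inside HLA-DQA2 (14 reads).

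A cluster of 40 tRNA genes lies at the lower end of the region. In the overexpression library 8 of the 40 had a summit within 1000 bp and in the control library 11, against 33.9% and 26.0% of all 443 tRNA genes. The highest summit of 7 overexpression intervals lay there, 6 of them overlapped by the control list, and that of 12 control intervals, 6 of them overlapped by the overexpression list. They were 2.21% of the region's overexpression and 2.90% of its control intervals, against 0.346% and 0.135% in the rest of chromosome 6. All these intervals lay in class I, and none was at an end of a protein-coding gene. tRNA genes occur as close copies as well, so the place of these reads is uncertain.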

How the data were processed

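ChIP-seq with an anti-TCF19 antibody was analysed in 2 libraries of Ishikawa cells, 1 per group, grouped by the genotype label. Per the submitters' processing notes, BWA 0.7.12, MACS2 2.1.0 and hg38 were used. Their settings, the treatment of duplicate reads and any input are not stated in the labels. The authors deposited 1 peak list per library, with a score, a fold enrichment (a ratio), a −log10 p-value and a −log10 q-value per summit, and the lowest −log10 q-value was 1.30 in each list. The summit position deposited with each peak is an offset from the interval's start, counted in bases.

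Pileups in whole reads were solved from fold and −log10 p-value, both as deposited (misfit at most 0.001) for all 354 overexpression and 452 control summits of the region. Above the genome average, its lowest value, the local background came out as whole reads of the same library in 10 kb. The calls therefore look made without an input and carry no correction for one. The genome average of 51.8 (overexpression) and 58.0 (control) reads in 10 kb stood for depth. Reads may hold PCR copies.

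The region ran from 28.5 to 33.5 Mb without 31.11 to 31.18 Mb, and intervals were placed by midpoint on chromosomes 1 to 22 and X, genes taken from RefSeq (GRCh38.p14; strand for 15812 of 19974 coding genes), and the rest of chromosome 6 spanned 165.6 Mb. The self-written steps were tested on simulated data. Python 3.11.15, numpy 2.4.6, pandas 2.3.3, scipy 1.17.1 and matplotlib 3.10.9 were used. The members, the 11 gene lists (117 of 122 genes tested, 4 in the sequence left out and 1 not found under its symbol) and the comparisons were chosen with earlier results of these data known. Every listed immune gene with a gene-end summit was named with its summit of highest fold, with the 5 intervals of highest fold per library and the 5 seen in 1 list alone. One class I gene is not reported here. Genes of general function were named after their values were seen. Alternatives were a stricter q-value, equal list sizes, other windows, overlaps and borders, and added transcript starts.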

Additional observations from a re-analysis of the deposited data

How the results depend on the processing

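With 1 library per group, no replicate was left out, and the spread between replicate libraries is unknown. No paired analysis was possible because each group had 1 library and the labels give no replicate numbers. Summit pileups of at most 27 reads set the precision, and a peak called in 1 list alone often lay within counting error of the other list's calling limit. Exon annotation and genome sequence were not used.

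Keeping the 70 kb around TCF19 moved none of 12 values, and a −log10 q-value of at least 2 moved 1 of 30, the control count of HLA class II genes, to 2. With equal list sizes by highest fold, 13 of 24 values moved. Relative density fell to 1.49 (overexpression) and 1.29 (control) for the whole region, 1.80 for class I, 1.02 for class II and 1.04 for class III in the overexpression library, and it reversed to 0.468 for class III in the control library. The folds divide by the local background, which was highest there. The gene-end share was then 13.0% (4.54 to 32.1) in class II of the overexpression library. In the control library it was 10.5% (6.12 to 17.5) in the region and 0% (0 to 39.0) in class III. These last limits include the 31.3% of the full control list. Overlapped shares of overexpression intervals were 41.9% (region), 43.0% (class I), 43.5% (class II) and 30.8% (class III). In class III the gene-end share of overexpression intervals was 38.5% (17.7 to 64.5). There the overlapped share of control intervals was 66.7% (30.0 to 90.3). Moving the borders gave class II a relative density of 1.09 in the overexpression library.

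A window of 500 bp gave gene-end shares of 13.2% (overexpression) and 10.6% (control) in the region, 10.9% and 7.69% in class I, 13.3% and 8.05% in class II and 20.0% in class III of the overexpression library, with 51 and 46 genes. HLA class I genes then numbered 3 and 2, and class II genes 1 and 1. A window of 2000 bp gave 31.23% and 23.4% in the region, 25.5% and 17.3% in class I and 44.8% in class III of the control library, with 7 and 5 HLA class I genes and 4 and 6 class II genes. Requiring overlap of at least 50% of an interval gave 55.2% and 44.4% in the region and 57.8% in class I of the overexpression library. With the transcript starts of the promoter table added, an alternative chosen after seeing the data, 88 and 78 genes of the region had a summit, 7 and 6 of HLA class I and 1 and 4 of class II.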

Other observations

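The complex also holds many non-coding genes, and part of its intervals lay at their ends. Long non-coding RNA genes had the summit within 1000 bp of an end at 35 of 317 overexpression intervals (11.0%, 8.05 to 15) and 33 of 414 control intervals (7.97%, 5.73 to 11.0), against 6.37% and 4.36% in the rest of chromosome 6. At pseudogenes, which include many degenerate copies of class I genes, the shares were 9.15% (6.45 to 12.8) of overexpression and 12.3% (9.50 to 15.8) of control intervals, against 3.56% and 3.0% in the rest. Of the 51 control intervals at pseudogene ends, 22 were overlapped by an overexpression interval, and of the 29 overexpression intervals 20 by a control interval. Reads of pseudogenes and of their parent genes can be exchanged, and the share of length at such ends was not computed.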
